A study of Mus musculus with 6 samples.

Results

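Genes of the integrated stress response and of the signals that mitochondria send under stress, 10 in all, were followed in the mouse kidney after deletion of the transferrin receptor TfR1. They are the 4 eIF2alpha kinases (Eif2ak1, Eif2ak2, Eif2ak3 and Eif2ak4), the 2 regulatory subunits of the eIF2alpha phosphatase (Ppp1r15a and Ppp1r15b), the mitochondrial relay genes Oma1 and Opa1, and the secreted stress factors Fgf21 and Gdf15. They were taken by symbol, 10 of the 24422 gene symbols counted, for their known roles and not for a threshold on these counts. Earlier results of these data were known when they were chosen. RNA of whole kidneys from C57BL/6 mice at postnatal day 13, all on a diet with 220 ppm iron, was sequenced in 3 Control (wild type) and 3 TfR1 knockout (Tfr1f/f;SixCre) libraries, each labelled as a biological replicate. The Six2Cre driver acts in the progenitors of the nephron tubule and not in stroma, vessels, blood cells or the collecting duct, and the study describes tubule cells that escaped deletion. A whole-kidney level therefore mixes deleted, escaped and never targeted cells, and in such bulk samples fewer cells of a type and less RNA per cell cannot be told apart.

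Phosphorylation of the translation factor eIF2 slows general protein synthesis while messages such as that of the transcription factor ATF4 are translated better. Each kinase answers to its own signal: Eif2ak1 (HRI) to low heme and to mitochondrial stress, Eif2ak2 (PKR) to double-stranded RNA, Eif2ak3 (PERK) to misfolded proteins in the endoplasmic reticulum, and Eif2ak4 (GCN2) to uncharged tRNA. The phosphatase subunits guide protein phosphatase 1 back to eIF2, Ppp1r15b (CReP) constitutively and Ppp1r15a (GADD34) as an induced feedback. Oma1 is a protease of the mitochondrial inner membrane that cuts the fusion GTPase Opa1, and Fgf21 and Gdf15 are circulating factors made by stressed cells. Kinase and protease activity are set largely on the protein, and the counts measure only messenger RNA.

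Ppp1r15a and Gdf15 rose strongly in the TfR1 knockout, Eif2ak2 rose less and on weaker evidence, the other 6 tested genes did not pass, and Fgf21 was near 0 in both groups. Of the 9 genes with an adjusted p from DESeq2 (Wald test, Benjamini-Hochberg over all genes), 3 passed 0.05, all higher in the knockout, and 2 of these were at least 2-fold higher. Of all 16509 tested genes 14.9% passed: 7.74% were higher, 7.18% were lower, and 4.41% were higher by at least 2-fold. edgeR's quasi-likelihood test called 2 of the 9, Ppp1r15a and Gdf15, beside 6.02% of 15308 genes (3.22% higher and 2.8% lower). No member passed as lower in DESeq2 or edgeR, and 0 were lower at an unadjusted p under 0.05 in either. The normalized counts of Control and knockout did not overlap in 4 of the 9, all higher in the knockout (Eif2ak2, Ppp1r15a, Opa1 and Gdf15), beside 16.9% of all tested genes higher and 16.9% lower without overlap.

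**Figure D1:**
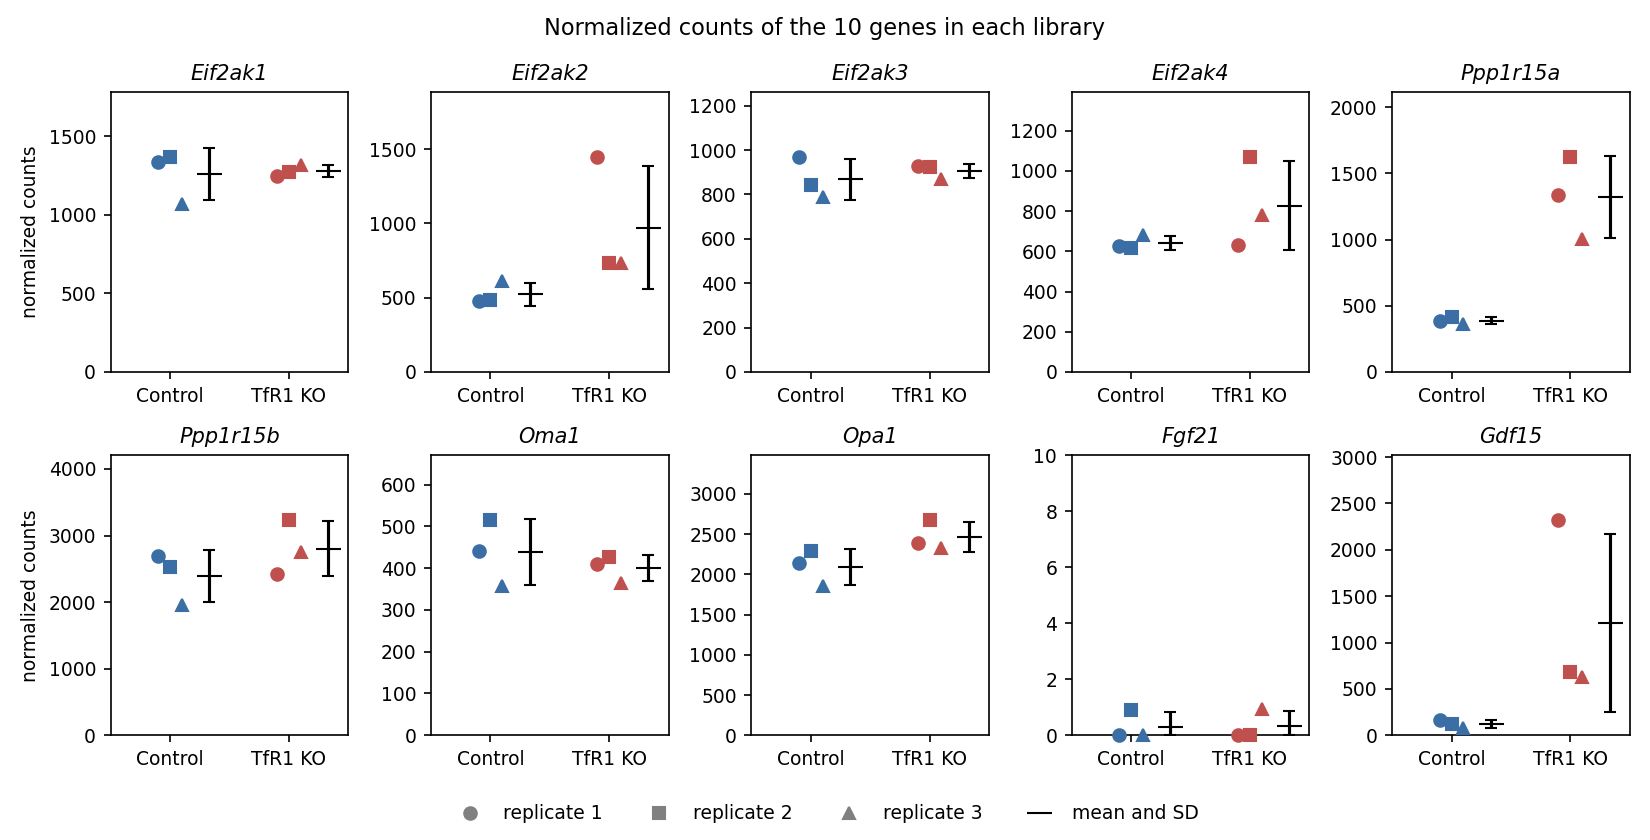
Normalized counts (linear axes that start at 0) of the 10 genes in each of the 6 libraries, 3 Control and 3 TfR1 knockout, with each group's mean and SD. Ppp1r15a and Gdf15 stand above every Control library in all 3 knockout libraries, Eif2ak2 does so by a small margin except in knockout replicate 1, and Fgf21 holds at most 1 read in any library.

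Stretches upstream of 3 of the genes are shown because these are the induced feedback gene, the induced secreted factor and the secreted factor that stayed near 0. They come from the RefSeq promoter windows (GRCm38.p6, 250 bases before to 50 after a start), each matched letter for letter to the mm9 genome at the position given, on the minus strand, and written 5′ to 3′. Capitals mark a motif match.
Ppp1r15a, chr7:52781639-52781699: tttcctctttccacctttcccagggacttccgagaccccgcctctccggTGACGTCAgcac
Fgf21, chr7:52870951-52871050: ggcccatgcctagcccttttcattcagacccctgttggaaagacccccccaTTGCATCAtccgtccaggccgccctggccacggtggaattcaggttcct
Gdf15, chr8:73156370-73156461: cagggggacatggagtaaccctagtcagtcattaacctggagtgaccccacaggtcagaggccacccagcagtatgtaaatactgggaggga

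The capitals in Ppp1r15a are the cAMP response element TGACGTCA, bases -12 to -5 from the start, which reads the same on both strands and is in 1.79% of 32851 RefSeq windows. It was searched for after the sequence had been seen. The capitals in Fgf21 are the core TGATGNAA of the C/EBP-ATF response element, read on the opposite strand at -139 to -132, which 3.97% of windows hold on either strand. Of the 9 genes with a window, Fgf21 alone held that core, and the windows of Ppp1r15a and Gdf15 did not. Only the promoter windows were searched, so a core outside them would have been missed. Whether ATF4 acts on these genes through this core, the cAMP response element or other letters was not tested. The antioxidant element TGACNNNGC was found in Ppp1r15a only, at +4 to +12 on the opposite strand (12.4% of windows). The p53 element and the ER stress element, in 0.0731% and 0.119% of windows, were found in 0 of the 9. The first base written of the Ppp1r15a stretch borders the start of Plekha4, which is transcribed the other way, and its last base is the one before the start of Ppp1r15a.

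Total counts ran from 16591156 to 22898008 per library, so counting error is small for all but Fgf21. Tfrc, the gene of TfR1, had 5534, 6485 and 3667 normalized counts in Control and 6976, 4045 and 5898 in the knockout. These overlapped (log2 fold change 0.11, SE 0.29, DESeq2 adjusted p = 0.853). Only part of the gene is floxed, and its whole-gene count does not separate the labels. Markers of the thick ascending limb were present in every library, and 7 of 8 fell in DESeq2, beside 7.18% of all tested genes. That fall (Umod, log2 fold change -3.65) separates the groups. Xist exceeded the Y-linked Ddx3y in Control 1, Control 3 and knockout 2, so the sexes were mixed within each group and not balanced between them. Knockout 3 held 1090 Xist counts beside 2481 of Ddx3y. Control 3 stood apart from the other controls, with a summed proximal tubule marker level of 76716 normalized counts against 152750 and 157328.

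Of the 4 kinases, Eif2ak2 passed and the other 3 did not. Per length, as counts per kb of exon scaled to library size (CPM per kb), their summed level was 30.5 ± 0.800 in Control and 34.6 ± 4.53 in the knockout (SD, n = 3 each). Eif2ak1 had the highest level of the 4 in Control (11.9 ± 1.12), followed by Eif2ak3 (8.56 ± 0.788), Eif2ak2 (5.50 ± 1.03) and Eif2ak4 (4.62 ± 0.435). The ranges of Eif2ak2 and Eif2ak4 overlapped, and those of the other neighbours did not. In the knockout Eif2ak2 (9.57 ± 4.51) came second, and its range covered those of Eif2ak1 and Eif2ak3.

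Eif2ak1, the heme-regulated kinase (chr5:144578657-144665125, plus strand, mm9), did not pass. It had 1338, 1371 and 1070 normalized counts in Control and 1245, 1272 and 1317 in the knockout. The knockout libraries all lay inside the Control range. The log2 fold change was 0.02 (SE 0.17, 95% interval -0.31 to 0.35, DESeq2 adjusted p = 0.957). The interval leaves out a change of 1.5-fold in message, and says nothing of kinase activity. Its exons share 487 bases with Aimp2 and 172 with Ankrd61 on the opposite strand, and without stated strand in the counting, reads from there cannot be told apart.

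Eif2ak2, the double-stranded RNA kinase (chr17:79251904-79281913, minus strand), was the kinase that passed. It had 476, 482 and 610 normalized counts in Control and 1450, 731 and 734 in the knockout. The groups did not overlap, but knockout 1 lay far above the other two, which sat just over Control 3. The log2 fold change was 0.90 (SE 0.32, 95% interval 0.27 to 1.52, 1.86-fold, DESeq2 adjusted p = 0.0371). edgeR gave an adjusted p of 0.117 and limma-voom 0.133. The call held in 9 of 17 alternatives, whose adjusted p ran from 0.0152 to 0.195. Without knockout 1 the log2 fold change was 0.49 (DESeq2 adjusted p = 0.102), without Control 1 it was 0.83 (0.195), without Control 2 it was 0.83 (0.183), and with a term for Xist it was 0.80 (0.0966).

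Eif2ak2 is itself induced by interferon, and most other interferon-stimulated genes examined were also highest in knockout 1. In a list of 12, chosen after these values were seen, 11 were highest there and Rsad2 in knockout 2. The list had a median log2 level over the Control mean of 2.91 in knockout 1, 0.71 in knockout 2 and -0.40 in knockout 3. Their summed level was 4876 to 5482 normalized counts in Control, and 22829, 7570 and 4430 in the 3 knockout libraries. At an unadjusted p under 0.05 there were 6 of the 12 in DESeq2 and 5 in edgeR, with no share over all genes to compare. By adjusted p, 3 rose in DESeq2 (Irf7, Oas1a and Ifi44), beside 7.74% of all tested genes. In edgeR 0 were called, beside 6.02%. Without knockout 1 none of the 3 passed in DESeq2 (adjusted p = 0.0543, 0.391 and 0.144). Their part in the Eif2ak2 result was not tested. Adar, an editor of double-stranded RNA, was highest in knockout 1 too, with 894, 915 and 901 normalized counts in Control and 2068, 1040 and 1101 in the knockout, and did not pass (log2 fold change 0.64, DESeq2 adjusted p = 0.137).

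Eif2ak3, the kinase of the endoplasmic reticulum (chr6:70794509-70855239, plus strand), had 970, 844 and 790 normalized counts in Control and 928, 922 and 869 in the knockout. All knockout libraries lay inside the Control range. In the fit the log2 fold change was 0.06 (SE 0.16, 95% interval -0.25 to 0.38, DESeq2 adjusted p = 0.849).

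Eif2ak4, the uncharged tRNA sensor (chr2:118214353-118300970, plus strand), had 627, 616 and 680 normalized counts in Control and 632, 1071 and 779 in the knockout. Knockout 1 lay among the controls while the other knockout libraries lay above them. Its log2 fold change of 0.37 (SE 0.24, 95% interval -0.10 to 0.84) did not pass in DESeq2 (adjusted p = 0.329), and the interval still holds a rise of more than 1.5-fold.

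As a share of the 4 kinases' summed per-length level, Eif2ak2 made up 18.0% ± 3.39 in Control and 26.9% ± 9.07 in the knockout (exact two-sided permutation p = 0.2, n = 3 each). Knockout 1 held 37.4%, the other knockout libraries 21.0% and 22.4%. The share of Eif2ak3 was 28.0% ± 1.91 and 24.2% ± 1.42 without overlap (exact permutation p = 0.1, the smallest that 3 against 3 allows). A share also depends on the other kinases, and Eif2ak3 itself averaged 868 normalized counts in Control and 907 in the knockout. The share of Eif2ak1 was 38.8% ± 3.83 and 32.7% ± 3.67 (exact permutation p = 0.2), and that of Eif2ak4 15.1% ± 1.41 and 16.2% ± 4.96 (exact permutation p = 0.8).

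The subunits of the phosphatase parted. Ppp1r15a, the induced subunit (chr7:52778286-52781638, minus strand), had 385, 413 and 361 normalized counts in Control and 1333, 1626 and 1004 in the knockout. Every knockout library lay over 2 times above every Control library, with knockout 2 the highest. Its log2 fold change was 1.77 (SE 0.23, 95% interval 1.32 to 2.23, 3.42-fold), with an adjusted p of 2.14e-12 in DESeq2 and 0.00505 in edgeR. It passed in all 17 alternatives, with log2 fold changes of 1.60 to 1.94 and adjusted p from 4.97e-16 to 0.00622, and ranked 480 of 16509 genes by size of rise.

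Ppp1r15b, the constitutive subunit (chr1:135027720-135036377, plus strand), had 2695, 2526 and 1957 normalized counts in Control and 2423, 3234 and 2752 in the knockout. The groups overlapped, with a log2 fold change of 0.23 (SE 0.21, 95% interval -0.18 to 0.63, DESeq2 adjusted p = 0.505). Of the per-length level of both subunits together, Ppp1r15a made up 21.4%, 23.8% and 26.0% in Control and 51.2%, 49.0% and 41.1% in the knockout. The mean share of the induced subunit went from 23.8% ± 2.30 to 47.1% ± 5.34 of the pair (SD, n = 3 each; exact two-sided permutation p = 0.1, the smallest possible).

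The mitochondrial relay genes did not pass. Oma1, the stress-activated protease (chr4:102986417-103044473, plus strand), had 441, 515 and 357 normalized counts in Control and 409, 427 and 365 in the knockout. The knockout values all lay within the Control range (log2 fold change -0.13, SE 0.21, 95% interval -0.55 to 0.29, DESeq2 adjusted p = 0.743). Opa1, the fusion GTPase cut by Oma1 (chr16:29579420-29654970, plus strand), had 2144, 2286 and 1853 normalized counts in Control and 2397, 2678 and 2322 in the knockout. Each knockout library lay above each Control library, by a small margin between Control 2 and knockout 3. The log2 fold change of 0.24 (SE 0.16, 95% interval -0.08 to 0.55) did not pass in DESeq2 (adjusted p = 0.355) or edgeR (0.326). Opa1 lies 2.95 Mb from the floxed Tfrc on the same chromosome. Cutting of the Opa1 protein by Oma1 cannot be read from these counts.

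The secreted factors stood at opposite ends. Gdf15, a TGF-beta family factor induced by stress (chr8:73153292-73156355, minus strand), had 164, 117 and 77.5 normalized counts in Control and 2323, 684 and 623 in the knockout. All knockout libraries were several fold above the highest control, and knockout 1 was over 3 times the other two. This gave a log2 fold change of 3.34 (SE 0.52, 95% interval 2.33 to 4.35, 10.1-fold, interval 5.02 to 20.4), with an adjusted p of 8.43e-09 in DESeq2 and 0.0235 in edgeR. It ranked 114 of 16509 genes by size of rise and passed in all 17 alternatives (adjusted p 4.50e-25 to 0.0456). Without knockout 1 the rise was 5.45-fold (DESeq2 adjusted p = 2.06e-10), and the remaining knockout libraries still lay above every control. Without both knockout 1 and Control 3, left out together after the data were seen, it was 4.64-fold.

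Fgf21, a metabolic hormone best known from liver (chr7:52869277-52870860, minus strand), had raw counts of 0, 1 and 0 in Control and 0, 0 and 1 in the knockout. Those 2 reads are all that 6 libraries held, and DESeq2 gave no adjusted p. A level of 3 counts, the upper limit that a count of 0 allows, would be 0.131 to 0.181 CPM over the libraries with a count of 0. The limit is higher for Control 2 and knockout 3, which held 1 read each. No fold is given, and a change below these limits was not detectable at this depth. Fgf21 lies 87.6 kb from Ppp1r15a, the gene that rose 3.42-fold.

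Ordered by level per length, the 10 genes changed places mainly through Gdf15 and Ppp1r15a. In Control the order ran from Ppp1r15b (22.8 ± 2.99 CPM per kb) through Opa1 (14.2 ± 0.953), Eif2ak1, Oma1 (10.9 ± 1.56), Eif2ak3, Ppp1r15a (7.03 ± 0.218), Eif2ak2 and Eif2ak4 to Gdf15 (3.44 ± 1.18) and Fgf21. The library ranges of Eif2ak1 and Oma1, of Oma1 and Eif2ak3, of Eif2ak2 and Eif2ak4, and of Eif2ak4 and Gdf15 overlapped. In the knockout Gdf15 moved from place 9 to place 1 by the group mean, at 65.1, 16.5 and 17.8. That place rests on knockout 1, and Gdf15 was at place 3 in each of the other knockout libraries, below Ppp1r15b and Ppp1r15a. Ppp1r15a moved from place 6 to place 3 (22.1 ± 3.56), and its range overlapped that of Ppp1r15b (24.7 ± 1.98).

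**Figure D2:**
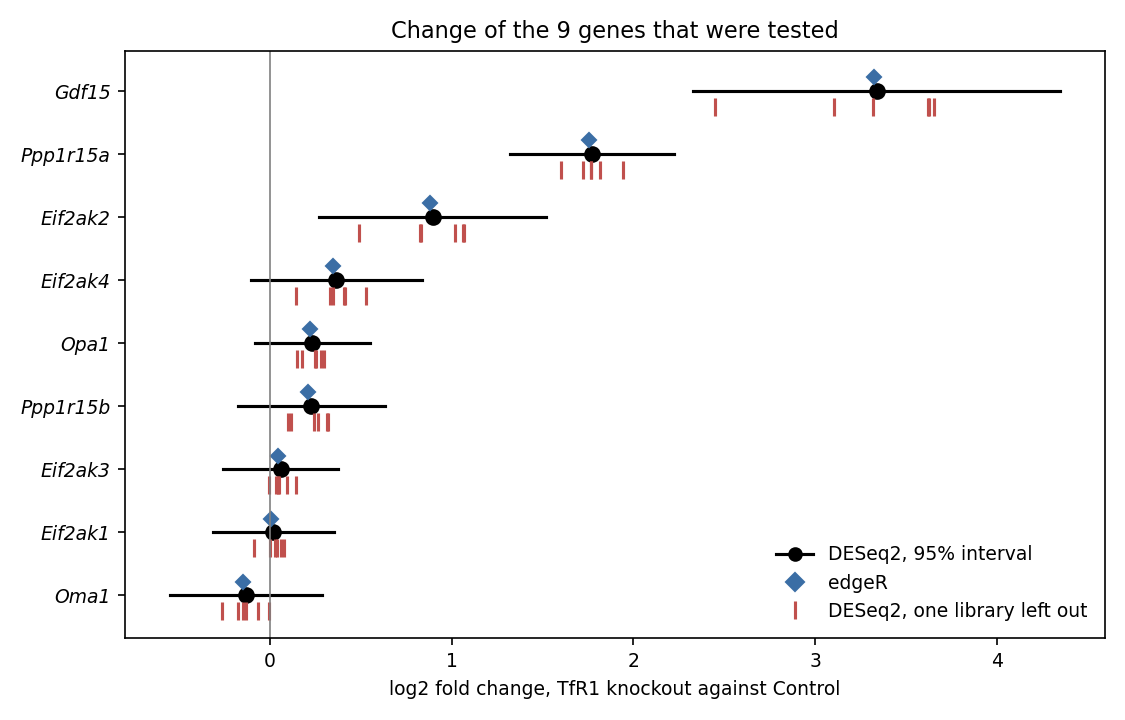
Log2 fold change (TfR1 knockout against Control, DESeq2) of the 9 tested genes with 95% intervals. The intervals of Gdf15, Ppp1r15a and Eif2ak2 lie above 0, at 3.34, 1.77 and 0.90, and those of the other 6 include 0.

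Genes for the factors that act with these kinases, subunits and proteases gave no calls. None of 11 eIF2 and eIF2B factors, 9 activators and inhibitors of the kinases, 3 catalytic subunits of protein phosphatase 1 and 20 mitochondrial protease, relay and dynamics genes passed in DESeq2 or edgeR. Of all tested genes 14.9% passed in DESeq2 and 6.02% in edgeR. At an unadjusted p under 0.05 there were 6 of these 43 in DESeq2 and 4 in edgeR. The share over all genes at that cutoff is not given, so these counts cannot be called high or low. The log2 fold changes of the 43 ran from -0.58 to 0.64. The list medians were 0.04, 0.21, 0.10 and 0.05, beside 0.01 over all tested genes. Dele1, which carries the signal from Oma1 to Eif2ak1, had 1163, 1258 and 1133 normalized counts in Control and 1094, 1104 and 1151 in the knockout. It did not pass (log2 fold change -0.09, DESeq2 adjusted p = 0.739).

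The receptors of the secreted factors were mostly without a call. Fgfr4, an FGF receptor, was the 1 of 6 tested that passed, as lower, beside 7.18% of all tested genes. It had 740, 793 and 342 normalized counts in Control and 367, 256 and 343 in the knockout, and Control 3 lay among the knockout libraries. The log2 fold change was -0.96 (SE 0.35, DESeq2 adjusted p = 0.0425, edgeR adjusted p = 0.119). The call was lost in 7 of 17 alternatives, among them without Control 1 (DESeq2 adjusted p = 0.244), Control 2 (0.270), knockout 2 (0.171) or knockout 3 (0.120), and the adjusted p over the alternatives reached at most 0.270. Klb, the FGF21 coreceptor, had 18.1, 21.8 and 20.5 normalized counts in Control and 37.8, 52.5 and 22.7 in the knockout (log2 fold change 0.89, DESeq2 adjusted p = 0.223). Gfral, the GDF15 receptor known from the hindbrain, had at most 1 count in any library, and its signalling partner Ret had 50.3 ± 10.9 and 56.6 ± 6.41.

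Most of the listed genes of the ATF4 branch were higher in the knockout. Of 18 listed, 16 rose and 0 fell in DESeq2, and edgeR called 12, all higher, beside 7.74% and 3.22% of all genes. The list was chosen with earlier results of these data known, so these shares are a description and not an independent comparison. The median log2 fold change was 1.80 (1.21 to 1.88 with each library left out in turn). The top 5 were Trib3, a pseudokinase (40.9 to 842 normalized counts, log2 fold change 4.37), Atf3, a stress transcription factor (68.3 to 963, 3.81), Chac1, which degrades glutathione (21.6 to 141.5, 2.72), Slc7a11, the cystine transporter (19.9 to 101.5, 2.35), and Ddit3 or CHOP, an activator of Ppp1r15a (277 to 1276, 2.20). All 5 passed in DESeq2 and edgeR. The 2 that did not pass, Phgdh (-0.36) and Shmt2 (0.57), are named for completeness after their values were seen.

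Known p53 targets rose too, and Gdf15 is known as a target of p53 as well as of ATF4 and CHOP. Of 20 listed, also chosen with earlier results known, 14 rose and 0 fell in DESeq2 and edgeR called 10, all higher. Over all tested genes 7.74% were higher in DESeq2 and 3.22% in edgeR. The median log2 fold change was 1.12 (0.85 to 1.29 with each library left out). Eda2r (4.15), Cdkn1a (3.23), Pmaip1 (2.96), Btg2 (2.42) and Ccng1 (1.97) had the largest changes among the 14 that passed. Sesn2 is on both lists. In the 3 knockout libraries the median log2 level over the Control mean was 1.25, 1.80 and 1.29 for the ATF4 branch and 0.84, 1.57 and 0.93 for the p53 targets, highest in knockout 2 each time. Ppp1r15a was also highest in knockout 2 (1.78, 2.07 and 1.38), while Gdf15 was highest in knockout 1 (4.27, 2.51 and 2.37). Single genes of the ATF4 list did not all follow its median. Atf4 itself was lowest in knockout 2 (4204, 3868 and 4398 normalized counts), and Trib3 was highest there (740, 1103 and 684). The part of either list in the rise of Gdf15 was not tested.

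**Figure D3:**
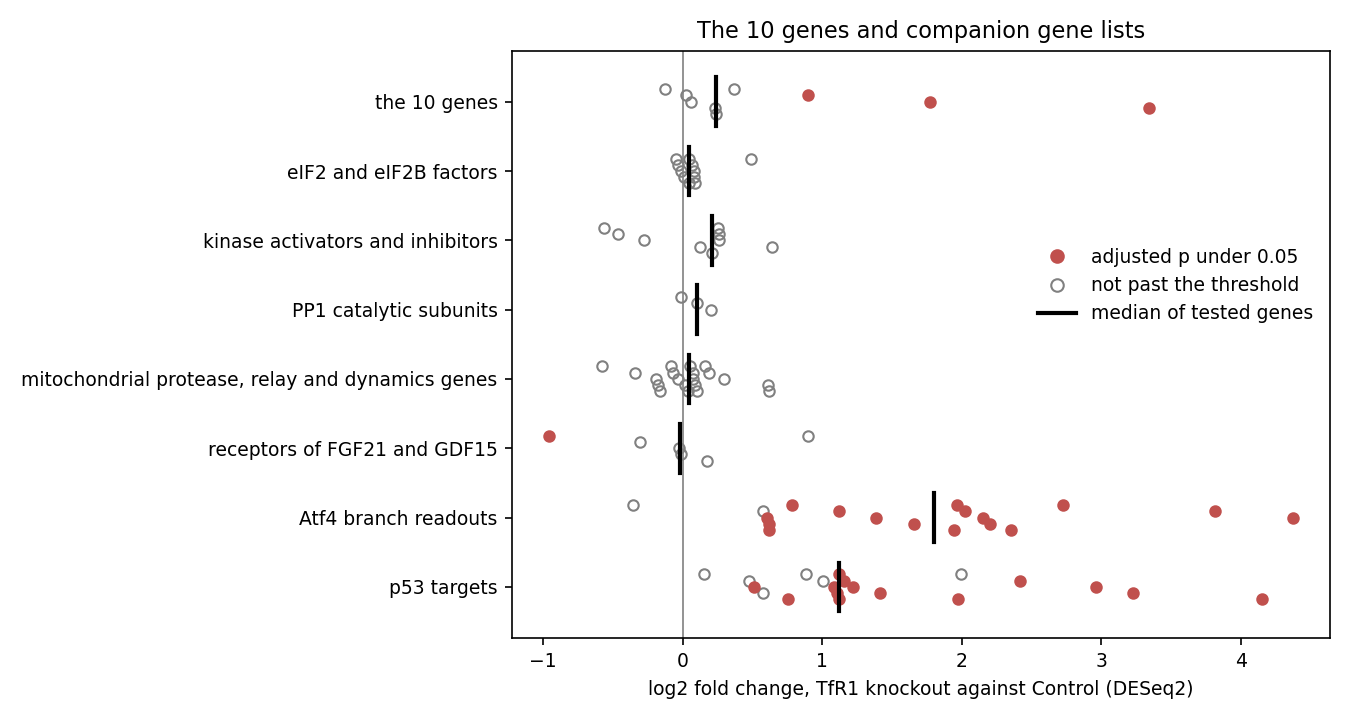
Log2 fold change (TfR1 knockout against Control, DESeq2) of each tested gene in 8 lists, filled where the adjusted p was under 0.05, with the median of each list as a bar. The eIF2 factors, kinase regulators, phosphatase catalytic subunits and mitochondrial genes hold no filled point, while the Atf4 branch (16 of 18) and the p53 targets (14 of 20) do.

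Macrophage markers moved with the groups as well. Of 10, 7 rose in DESeq2 and 6 in edgeR, beside 7.74% and 3.22% of all tested genes. The markers' summed level was 2821 to 4781 normalized counts in Control and 7971 to 10184 in the knockout, with no marker at 0. The highest sum was in knockout 1, as for Gdf15 and Eif2ak2. Among the controls it was highest in Control 3, where Gdf15 was lowest and Eif2ak2 highest. Markers of the distal convoluted tubule (4 of 5 lower) and thick ascending limb fell, those of the proximal tubule gave 1 higher and 3 lower of 10, and those of the collecting duct 3 higher and 2 lower of 8. Podocyte markers gave 1 of 6 higher, endothelial markers 1 of 6 higher, and stromal markers 1 of 5 tested lower, with Ren1 near 0. These are DESeq2 calls, beside 7.74% of all tested genes higher and 7.18% lower. The part of these cell types in the levels of Ppp1r15a, Gdf15 and Eif2ak2 was not tested.

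**Figure D4:**
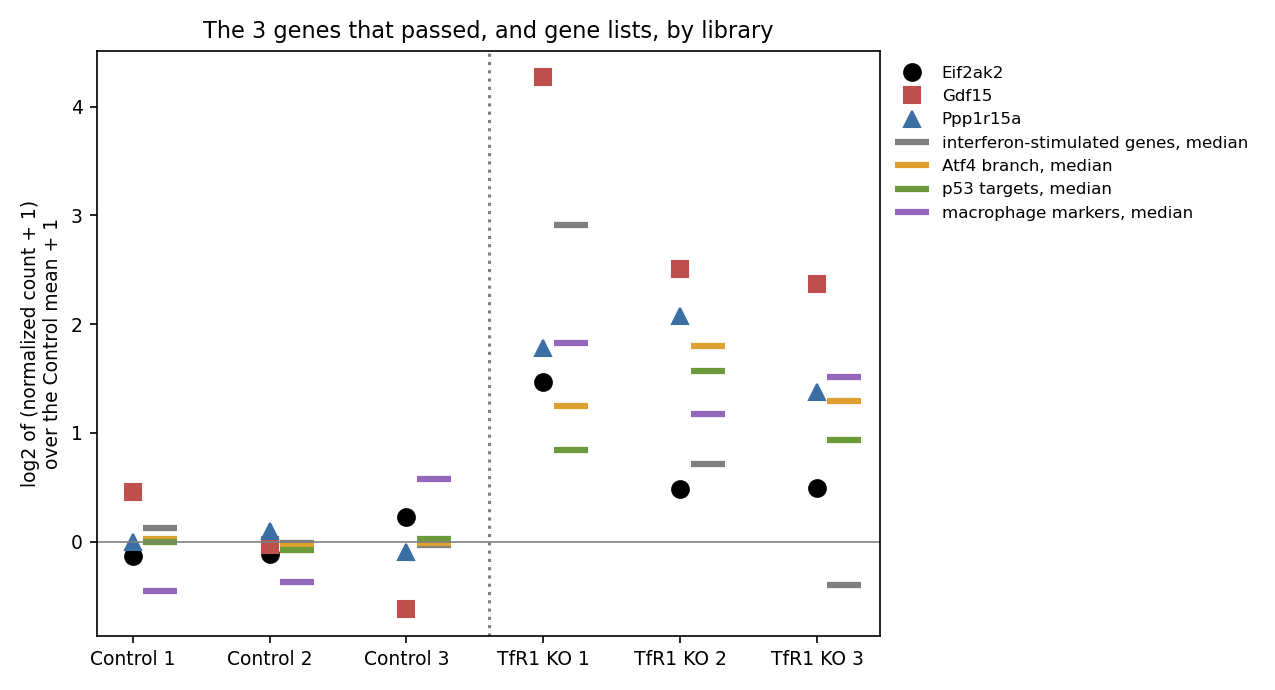
Log2 level over the Control mean in each library for Eif2ak2, Ppp1r15a and Gdf15 and, as the median of each list, for the Atf4 branch, the p53 targets, the interferon-stimulated genes and the macrophage markers. Eif2ak2, Gdf15, the interferon-stimulated genes and the macrophage markers are highest in knockout 1, and Ppp1r15a, the Atf4 branch and the p53 targets in knockout 2.

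Across the 6 libraries the genes whose pattern was most like that of Ppp1r15a were Dusp4, Guca2b and Gars (Pearson r 0.998 each, among 12114 genes averaging 100 or more normalized counts). Those most like Gdf15 were Ppp2r1b (0.995), Sorbs2 (0.992) and Gsdmc3 (0.992). Because the groups differ, the correlation carries the group difference, and 705 and 349 genes respectively reached 0.9. It describes these libraries and is given without a test.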

How the data were processed

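RNA was measured in 6 whole kidneys by poly-A sequencing. The deposited values are raw counts per gene, which the authors made by trimming reads with Trimmomatic, aligning them with TopHat 2.0.11 to mm9 and counting with HTSeq. CASAVA 1.8.2 is also named in the submitters' processing notes. Whether counting used strand is not given in the sources used here. Total counts of 16591156 to 22898008 per library make counting error small except near 0, and limits from a count of 0 cover counting error only. P-values measure the spread between these 3 libraries per group.

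Groups and replicate numbers came from the sample titles. All 24422 genes were fitted with DESeq2 1.42.0 (R 4.3.3), as in the study, with median-ratio size factors and independent filtering at 0.05, which set the lowest mean count tested at 3.51. A gene passed at an adjusted p under 0.05. Alternatives were edgeR 4.0.16, limma 3.58.1 with voom, other size factors and filters, a replicate block, and leaving out each library. Dropping Control 3 with knockout 1, and a term for Xist above Ddx3y, were added after seeing the data. The code was tested on simulated data. Replicate numbers were not treated as pairs in the main fit. Levels over the Control mean are log2(normalized count + 1).

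The 10 genes and the lists were chosen with earlier results of these data known, and the interferon list and the cAMP element after values and sequences were seen. Named from each list were all genes past the threshold when at most 5 were, otherwise the 5 with the largest change, genes with at most 3 counts as near 0, and for Ppp1r15a and Gdf15 the 3 genes with the highest correlation. Positions and exon lengths came from GENCODE of the same build, which matched 20608 symbols once. No RefSeq promoter window was used for Ppp1r15b.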

Additional observations from a re-analysis of the deposited data

How the results depend on the processing

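Ppp1r15a and Gdf15 kept direction and call in all 17 alternatives, while Eif2ak2 kept its call in 9 of 17 and its direction in all. The 10 genes gave 3 higher calls in 9 alternatives and 2 in 8, and no lower call in any. Over all genes, 2463 passed, against 921 with edgeR, 941 with limma-voom and 1239 to 3205 with each library left out in turn (3413 without Control 3 and knockout 1 together). Genes near no change crossed 0 without passing. Eif2ak1 had a log2 fold change of -0.0020 with TMM, -0.026 with upper-quartile and -0.079 with total-count size factors, -0.087 to 0.079 with each library left out, -0.067 without Control 3 and knockout 1 together, and -0.010 with the Xist term. Eif2ak3 had -0.043 with total-count size factors, -0.0047 to 0.14 with each library left out, and -0.021 without Control 3 and knockout 1. Tfrc had -0.095 to 0.30 with each library left out, including -0.072 without knockout 1, and -0.28 without both and -0.098 with the Xist term. The cause was not tested. The median of all tested genes was 0.01 by median ratio and -0.10 with total-count size factors.

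Same-numbered libraries deviated from their group means with correlations of 0.013, 0.030 and 0.16. Such low values cannot show whether same-numbered kidneys shared a litter or a preparation. With the replicate block 2172 genes passed and the same 3 of the 10 genes were higher (Gdf15 3.13, Ppp1r15a 1.75, Eif2ak2 0.82). For the 14 genes named from lists, 206 values kept their side of the threshold and 31 lost it: 9 each for Irf7 and Ifi44, 7 for Fgfr4, 5 for Oas1a, and 1 for Slc7a11 under limma-voom. Irf7 lost its call with the block (2.06, DESeq2 adjusted p = 0.157). Among 240 recomputed list medians, 15 shifted beyond 1 SD of the libraries. Depth limits only Fgf21, Gfral and other genes with few reads.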

Other observations

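Plekha4, which starts at the distal end of the upstream stretch of Ppp1r15a and was looked up after the values were seen, had 116, 110 and 206 normalized counts in Control and 280, 85.7 and 102 in the knockout. The groups overlapped (log2 fold change 0.12, DESeq2 adjusted p = 0.910), while Ppp1r15a rose 3.42-fold.

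Of 6 genes best known from hepatocytes, 4 were higher in DESeq2 (Alb, Apoa1, Ttr and Cyp2e1) and 2 in edgeR (Alb and Cyp2e1). Over all tested genes 7.74% were higher in DESeq2 and 3.22% in edgeR. The 6 hepatocyte genes were not all low in Control, where Ttr had 3164 to 4815 normalized counts. Serpina1a did not pass (992 and 513 normalized counts on average, log2 fold change -0.95, DESeq2 adjusted p = 0.114), and Fgb did not pass either (0.47). Alb, the gene of serum albumin, had 28.0, 15.5 and 14.0 normalized counts in Control and 433, 371 and 67.2 in the knockout, with no overlap (log2 fold change 3.91, DESeq2 adjusted p = 3.70e-08, edgeR adjusted p = 0.0265). Fgf21, known from hepatocytes too, had 2 reads in all 6 libraries.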
